A study of Mus musculus with 12 samples.

Results

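The nuclear-encoded genes of the mitochondrial respiratory chain were followed by complex in mouse colonic epithelial cells. Members were the protein-coding genes whose symbols begin with Nduf (followed by a, b, c, s or v), Uqcr, Cox4 to Cox8 or Atp5, together with Sdha, Sdhb, Sdhc and Sdhd. No measured value entered this choice. It gave 93 of the 46517 listed gene IDs, of which 46 were assigned by name to complex I, 4 to complex II, 8 to complex III, 18 to complex IV and 17 to complex V. Enough counts for testing were present for 85 of them, among 12522 genes tested in all. The name rule takes in 8 complex I assembly factors (Ndufaf genes), and it leaves out cytochrome c1 (Cyc1), a subunit of complex III with another kind of symbol.

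RNA of intestinal epithelial cells was sequenced from the colons of C57BL/6 mice aged 7 to 9 weeks. The 4 groups of 3 samples were wild-type (WT) mice left untreated, WT mice given dextran sulfate sodium (DSS) for 48 h, Nfkb2-/- mice (knockout, KO) left untreated, and Nfkb2-/- mice given DSS for 48 h. DSS is a polysaccharide that injures the colonic epithelium, and Nfkb2 encodes the p100/p52 subunit of NF-kB. The knockout is not described as restricted to one cell type in the sources used here, the cells were detached with EDTA, and their typical purity as CD45.2-negative, EpCAM-positive cells is stated as about 90%.

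The respiratory chain sits in the inner mitochondrial membrane. Complexes I and II pass electrons from NADH and succinate to ubiquinone, complex III passes them on to cytochrome c, complex IV hands them to oxygen, and complex V uses the proton gradient so formed to make ATP. Most subunits are encoded in the nucleus and imported, while a few are encoded by mitochondrial DNA. Surface colonocytes are known for their high oxidative metabolism, which is fed by butyrate from the gut microbiota.

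A pair of sequence features of the members were looked at. The first, which bears on how their counts can be read, is likeness between members and to other genes. Atp5g1, Atp5g2 and Atp5g3 lie on chromosomes 11, 15 and 2 and encode the same mature c subunit of the ATP synthase rotor behind different import sequences. The last 150 coding bases of each (exonic, GRCm38, read along the coding strand) are shown because reads from this stretch could be hard to assign. Capitals mark the 39 positions at which the 3 genes do not all carry the same base.

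Atp5g1: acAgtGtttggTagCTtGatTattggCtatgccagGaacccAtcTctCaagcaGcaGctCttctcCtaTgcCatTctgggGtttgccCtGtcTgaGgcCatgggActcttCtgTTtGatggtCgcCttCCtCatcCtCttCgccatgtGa
Atp5g2: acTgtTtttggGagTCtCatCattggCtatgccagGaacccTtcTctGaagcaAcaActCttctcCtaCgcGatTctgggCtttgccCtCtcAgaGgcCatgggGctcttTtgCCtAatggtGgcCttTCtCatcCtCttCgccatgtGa
Atp5g3: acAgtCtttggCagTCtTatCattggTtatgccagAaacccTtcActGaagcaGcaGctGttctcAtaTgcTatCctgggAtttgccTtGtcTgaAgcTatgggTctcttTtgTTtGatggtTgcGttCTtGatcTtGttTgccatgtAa

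Pairwise identity over this stretch was 84.7% for Atp5g1 and Atp5g2, 80.7% for Atp5g1 and Atp5g3, and 78.0% for Atp5g2 and Atp5g3. The longest identical runs were 21, 11 and 8 bases, so the 3 coding tails differ within any longer stretch. Copies elsewhere in the genome were closer. Of the 50-base words of the main Atp5g1 transcript, 66.0% also occur in transcripts of another annotated gene, mostly Gm10039, and 87.4% of those of Atp5g2 occur in Gm10175. No such word was shared by Atp5g3. Of the 85 tested members, 21 shared at least 20% of their words with another gene and 38 shared none. Among the 21 were Atp5l (84.8%), Cox7c (53.0%), Atp5h (50.5%) and Atp5o (50.3%). Reads from shared words could be hard to assign, and how far this altered the counts was not measured. A total of 38 tested members also overlap another annotated gene, whose reads an unstranded library cannot separate.

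The second feature lies in the promoters. Nuclear respiratory factor 1 (NRF1) is a transcription factor known for binding promoters of respiratory genes. A search of RefSeq windows (GRCm38.p6, 250 bases before to 50 after each start, both strands) found the NRF1 motif (GCGCA and GCGC with any base between them) in 19 of the 76 members with a window, or 25%, against 7.17% of the 17492 genes with one. These 19 members were 9 genes of complex I, 2 of complex II, 1 each of complexes III and IV, and 6 of complex V. Shares for the ETS motif CCGGAAG were 23.7% and 12.9%, for the YY1 motif AAGATGGC 14.5% and 3.57%, for the CRE motif TGACGTCA 5.26% and 2.54%, and for the ERR motif TCAAGGTCA 2.63% and 0.377%. These are letter matches on either strand and not measured sites, and matches of different motifs may overlap. Among the core subunits followed below, Sdha (3 matches) and Atp5c1 (1 match) held the NRF1 letters before the start, and their surroundings are shown on the genes' own strand with the match in capitals.

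Sdha, chr13:74350319-74350348 (minus strand), match starting 98 bases before the start: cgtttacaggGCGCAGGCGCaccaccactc
Sdha, chr13:74350276-74350305 (minus strand), match starting 55 bases before the start: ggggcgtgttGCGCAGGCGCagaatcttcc
Sdha, chr13:74350231-74350260 (minus strand), match starting 10 bases before the start: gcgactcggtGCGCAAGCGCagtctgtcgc
Atp5c1, chr2:10080430-10080459 (minus strand), match starting 17 bases before the start: ctgagctcccGCGCACGCGCactgagtccc

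The members were abundant, and their levels differed widely within each complex. Together they took 1.49% to 2.05% of the counts of a library. Per kilobase of main transcript, Atp5b, which encodes the catalytic beta subunit of the F1 head of ATP synthase, was highest at 2085 CPM (counts scaled to a common library size by TMM, mean over 12 samples). Atp5a1 (F1 alpha) followed at 975, Uqcrc1 (core protein 1 of complex III) at 668 and Atp5c1 (F1 gamma, the rotor shaft) at 653 CPM per kb. At the other end stood Ndufaf2, a complex I assembly factor, at 4.65 CPM per kb. Medians per complex were 25.7 CPM per kb for complex I, 317 for complex II, 65.1 for complex III, 80.4 for complex IV and 68.8 for complex V.

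Catalytic and core subunits lay above the small ones. In complex V the 5 F1 genes had a median of 653 CPM per kb and the 11 genes of the membrane part and stalks 65.5, although Atp5e (F1 epsilon) was at 22.8 and Atp5f1 (stalk subunit b) at 424. In complex III the median of the 3 core genes was 436 CPM per kb and that of the 5 small subunits 51.1. In complex I it was 97.0 for the 7 core genes, 24.6 for the 30 accessory genes and 7.95 for the 8 assembly factors. Ndufv1, the NADH-oxidizing flavoprotein of complex I, was at 228 CPM per kb. In complex II the membrane anchor Sdhd (447) and the flavoprotein Sdha (385) stood above Sdhc (55.4), the other anchor, whose annotated transcript is long for its coding part. Part of this order follows transcript length. Over the 85 members CPM had a Spearman correlation of 0.55 with transcript length and CPM per kb one of 0.27, against 0.11 and -0.28 over the 12403 other tested genes with a length. These are descriptions over genes that share the same libraries.

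**Figure D1:**
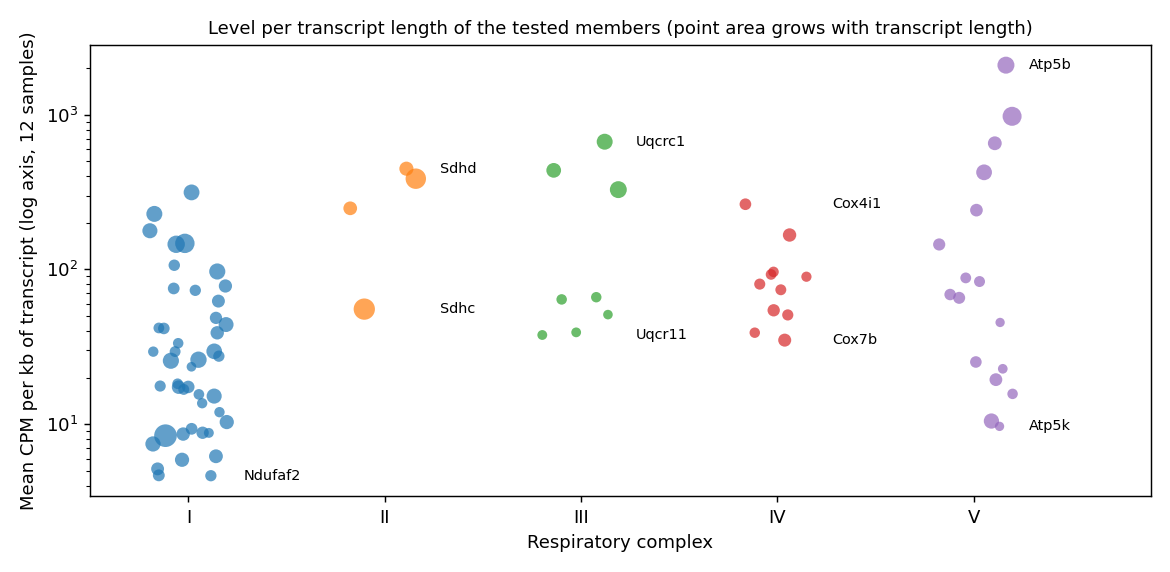
Mean level of each tested member over the 12 samples, in CPM per kb of main transcript (vertical log axis), by respiratory complex (horizontal axis), with point area growing with transcript length; the lowest member of each complex and the highest of complexes II to V are named. Atp5b stands highest at 2085 and Ndufaf2 lowest at 4.65 CPM per kb, and most small points lie in the lower part of their complex.

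Several complex IV genes exist as tissue-restricted paralogues, and these were nearly silent. Cox4i2, Cox7b2, Cox8b, Cox8c and the complex I paralogue Ndufa4l2 had 0 counts in all 12 libraries, which allows up to 3 counts in a library, or 0.356 to 0.530 CPM. The muscle form Cox6a2 had 3 counts in total, and the testis form Cox6b2 13. Cox7a1, the form of heart and skeletal muscle, had 96 counts over the 12 libraries, between 2 and 17 in each. Their widely expressed counterparts were present in each library. Cox4i1 lay between 143 and 234 CPM, Cox6a1 between 31.2 and 67.2, Cox6b1 between 30.4 and 59.2, Cox7a2 between 22.9 and 43.1, Cox8a between 33.8 and 67.1, and Ndufa4, which carries a complex I name but is now known as a complex IV subunit, between 13.1 and 21.9 CPM. The 13 protein-coding genes of mitochondrial DNA, and all 37 mitochondrial rows, are listed at 0 in all libraries, so nothing can be said here about the mitochondrially encoded part of the chain.

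Facts of the whole set of libraries bear on the comparisons. Total counts ranged from 5595909 to 8117740. Nfkb2 averaged 36.9 ± 6.52 CPM (SD, n = 3) in WT left untreated and 42.5 ± 3.34 after DSS, against 14.4 ± 2.90 and 17.5 ± 2.04 in the matching KO groups, so reads of the targeted gene remained in the KO libraries. Epithelial markers summed to 15873 to 24395 CPM and the 9 stromal, endothelial and muscle markers to 0.464 to 7.42 CPM. Summed markers of absorptive colonocytes were 8709 to 9860 CPM in untreated WT and 1839 to 2213 under DSS, and 5227 to 5713 in untreated KO and 2265 to 2808 under DSS. The 12 leukocyte markers, none of them at 0 throughout, summed to 18.2 to 33.2 CPM in WT and 74.7 to 89.7 in KO without DSS, and to 55.6 to 58.1 and 117 to 170 with it. In such bulk samples fewer cells of a type and less RNA per cell cannot be told apart.

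The members moved together from library to library within groups. In untreated WT, 80 of the 85 members were above their own 12-sample mean (log2 CPM) in replicate 1 and 76 in replicate 2, but only 9 in replicate 3. In untreated KO the numbers were 11, 81 and 68, in WT under DSS 19, 72 and 14, and in KO under DSS 6, 33 and 63. Median deviations ran from 0.31 in replicate 1 of untreated WT to -0.27 in replicate 1 of untreated KO. The groups thus differed less than the replicates within them, whose pooled SD of the median deviation was 0.23 while the group means lay between -0.06 and 0.08.

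Among the members those with short transcripts swung most. For the 33 members under 700 bases the median deviation spanned 0.74 across libraries, for the 27 members from 700 to under 1200 bases 0.63, and for the 25 members of 1200 bases or more 0.44. The 379 other tested genes under 700 bases swung by 0.46, the 1057 others from 700 to under 1200 bases by 0.51, and the 10967 others of 1200 bases or more by 0.088. This last class is most of the genes tested, and the library scaling itself holds the bulk of genes near 0. The short classes of both kinds were low in replicate 3 of untreated WT, replicate 1 of untreated KO and replicate 1 of KO under DSS. The bounds of the length classes were chosen after the values were seen, and the part of fragment length, RNA quality or cell makeup in these swings was not tested.

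**Figure D2:**
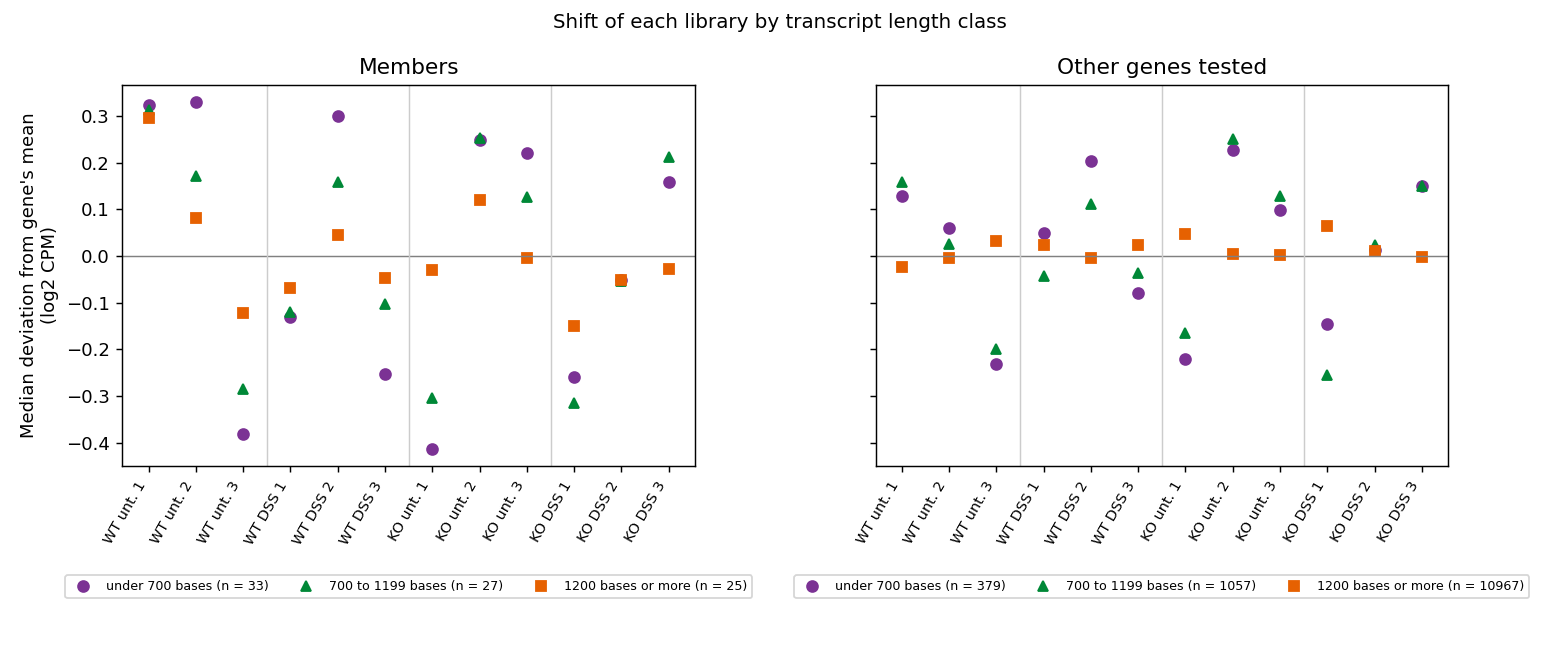
Median deviation of genes from their own 12-sample mean (vertical axis, log2 CPM) in each library (horizontal axis), for the members (left) and the other tested genes (right), in 3 classes of transcript length. Short classes spread widely between replicates of one group in both panels, from -0.41 to 0.33 for the members under 700 bases. Other genes of 1200 bases or more stay near 0, where the library scaling holds the bulk of genes.

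The summed level of each complex showed the same picture. Complex V summed to 10554, 9267 and 7641 CPM in the 3 untreated WT samples and to 8445, 8865 and 7655 CPM in WT under DSS. The 3 KO samples had 7774, 9140 and 8531 CPM without DSS and 7462, 7936 and 8574 CPM with it. All 4 groups overlapped, with the highest sum in replicate 1 of untreated WT. Atp5b, Atp5a1 and Atp5c1 made up 84.4% of the complex V sum, so it mostly follows the F1 head.

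Complex II, which also belongs to the citric acid cycle, summed to 2203 ± 244 CPM (SD, n = 3) in untreated WT and 2090 ± 30 in WT under DSS. In KO it was 2147 ± 181 untreated and 2069 ± 96 under DSS. Complex III summed to 2652 ± 321 CPM and 2333 ± 39 in WT, and to 2441 ± 156 and 2352 ± 125 in KO. Its 3 untreated WT values, 3001, 2585 and 2371 CPM, overlapped those of WT under DSS, 2334, 2373 and 2294 CPM, through replicate 3. In the order WT, WT with DSS, KO, KO with DSS, complex I summed to 3130 ± 462, 2838 ± 108, 3005 ± 217 and 2825 ± 212 CPM, and complex IV to 789 ± 165, 743 ± 124, 766 ± 156 and 751 ± 136 CPM.

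**Figure D3:**
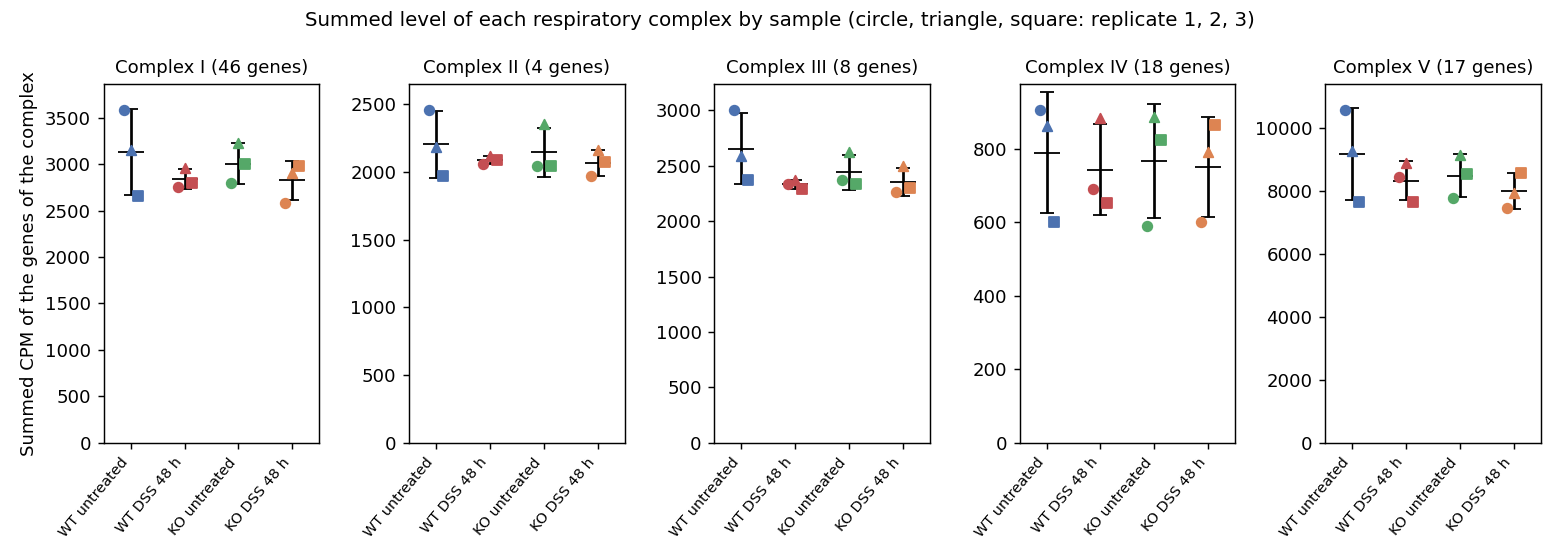
Summed CPM of the genes of each complex (vertical axes from 0, a scale for each panel) in the 4 groups (horizontal axis); points are the 3 samples of a group, the horizontal dash is the mean and the bar 1 SD. The groups overlap in each panel, and replicate 1 of untreated WT is the highest value for all 5 complexes.

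The first comparison asked how the chain stood 48 h into DSS in WT mice. None of the 85 tested members passed the threshold (edgeR quasi-likelihood test, Benjamini-Hochberg adjusted p under 0.05 over all genes), while 6.3% of all genes tested did. At an unadjusted p under 0.05 there were 2 of the 85 members, Uqcrfs1 among them, against 2204 of the 12522 genes tested. DESeq2 called 0 members. The number of members at an unadjusted p under 0.05 (edgeR) was 14 without replicate 3 and 0 without replicate 1 of untreated WT. It was 32 with the mean leukocyte marker level as a covariate. The matching number over all genes is not given here for these other fits. The log2 fold changes were small and mostly negative, with 63 of 85 below 0 and a median of -0.13, against 0.0063 over all genes. By complex the medians were -0.12 for complex I, -0.12 for II, -0.18 for III, -0.09 for IV and -0.14 for V. The 95% interval lay within a 2-fold change either way for 76 members and within a 1.5-fold change for 34. The median was -0.02 without replicate 1 of untreated WT, -0.28 without replicate 3 of that group, -0.08 without replicate 2, and -0.20 and -0.08 without replicates 2 and 3 of WT under DSS. With the leukocyte covariate it was -0.91.

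Uqcrfs1, the Rieske iron-sulfur protein that takes electrons from ubiquinol in complex III (chromosome 13 from 30540308 to 30545362, minus strand), had the smallest p. It was 818, 656 and 572 CPM in untreated WT and 532, 535.5 and 531 CPM under DSS. The groups did not overlap, and the untreated samples were far more spread than the treated ones. Its log2 fold change was -0.36 (SE 0.13, 95% interval -0.63 to -0.08, edgeR adjusted p 0.141). It passed when no filter on low counts was used (edgeR adjusted p 0.0399) and without replicate 3 of untreated WT (-0.47, edgeR adjusted p 0.0279).

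The remaining core subunits gave intervals around 0. Ndufv1 was 411, 401 and 395 CPM in untreated WT and 371, 371 and 349 under DSS, groups that did not overlap (log2 fold change -0.15, 95% interval -0.34 to 0.05). Ndufs1, the largest iron-sulfur subunit of complex I, had -0.17, Sdha -0.07 and Sdhb, the iron-sulfur subunit of complex II, -0.27. Uqcrc1 was 1194, 1123 and 1132 CPM in untreated WT against 1065, 1053 and 1093 CPM under DSS, again without overlap, at a log2 fold change of -0.10 (95% interval -0.27 to 0.07). Atp5b, at 4906, 4418 and 3714 CPM against 4050, 4157 and 3587, overlapped (-0.14, 95% interval -0.36 to 0.07). Cox4i1 and Cox5a, subunits of complex IV, had -0.14 and -0.04, and Atp5a1 and Atp5c1 -0.10 and -0.15.

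Groups that did not overlap were few. In WT this held for 4 members (4.71%), against 20.6% of all genes tested: Uqcrc1, Uqcrfs1 and Ndufv1 lower and Ndufaf8, a complex I assembly factor at 3.09 to 4.53 CPM in these samples, higher under DSS. All 6 colonocyte markers fell in the same comparison, with log2 fold changes from -3.59 for Slc9a3, a sodium-proton exchanger, to -1.51 for Slc26a3, a chloride-bicarbonate exchanger. All 9 leukocyte markers tested had log2 fold changes above 0, with a median of 1.62, and 3 of them passed the threshold. The part of these cell types in the members' values was not tested. The covariate fit above used leukocyte markers only. That covariate did not overlap between untreated WT (0.62 to 1.30) and WT under DSS (2.30 to 2.42), so marker level and DSS cannot be told apart there.

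In KO mice DSS gave 0 of 85 members past the threshold, against 3.92% of all genes tested (edgeR), and DESeq2 called 0. At an unadjusted p under 0.05 (edgeR) there was 1 member, Ndufaf4, against 1987 of the 12522 genes tested. Without a filter on low counts 4 members had such a p, with the leukocyte covariate 22, and with the replicate block 0. Leaving out 1 sample at a time gave 0 to 2, with 0 without replicate 2 or 3 of untreated KO and replicate 1 or 2 of KO under DSS, and also without any one replicate of WT under DSS. Negative log2 fold changes were found for 64 members, and the median was -0.10, against 0.015 over all genes. Medians by complex were -0.11 (I), -0.07 (II), -0.15 (III), -0.05 (IV) and -0.105 (V). The interval lay within 2-fold for 78 members and within 1.5-fold for 38. The median was 0.02 without replicate 2 of untreated KO, -0.25 without replicate 1 and -0.04 without replicate 3 of that group, and -0.01 without replicate 1 and -0.19 without replicate 3 of KO under DSS. With the leukocyte covariate it was -0.60.

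Ndufaf4, which helps assemble complex I (chromosome 4 from 24898083 to 24905001, plus strand), was 41.5, 34.2 and 34.7 CPM in untreated KO and 18.7, 28.8 and 31.3 CPM under DSS. The groups did not overlap, with replicate 1 lowest under DSS. Its log2 fold change was -0.48 (SE 0.22, 95% interval -0.96 to -0.0028, edgeR adjusted p 0.312). In WT it was -0.45 (edgeR adjusted p 0.332), with 38.9, 24.9 and 39.1 CPM untreated and 22.3, 24.4 and 28.9 CPM under DSS. Those WT groups overlapped through replicate 2 of untreated WT. Ndufc1, a small accessory subunit, had a larger difference and a wider interval. In KO it was 7.13, 7.69 and 11.6 CPM untreated and 5.30, 5.63 and 6.65 CPM under DSS, without overlap (-0.59, 95% interval -1.20 to 0.03).

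Ndufaf4 and Ndufc1 were among the 3 members (3.53%) whose groups did not overlap, against 24.3% of all genes tested. Among core subunits of complex I the log2 fold change was 0.03 for Ndufv1 and -0.13 for Ndufs1, with a median of -0.12 over the 7 core genes. It was -0.05 for Sdha and -0.08 for Sdhb, 0.06 for Uqcrc1, -0.05 for Cox4i1 and -0.13 for Cox5a. In the F1 head it was -0.10 for Atp5a1, -0.15 for Atp5c1 and -0.04 for Atp5b, and the 95% interval for Atp5b ran from -0.25 to 0.18. Uqcrfs1 had -0.22 (95% interval -0.49 to 0.06). All 6 colonocyte markers fell here too, from -2.45 for Slc9a3 to -0.65 for Car1, a carbonic anhydrase. All 9 leukocyte markers had log2 fold changes above 0, with a median of 0.74, and 1 of them passed the threshold.

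**Figure D4:**
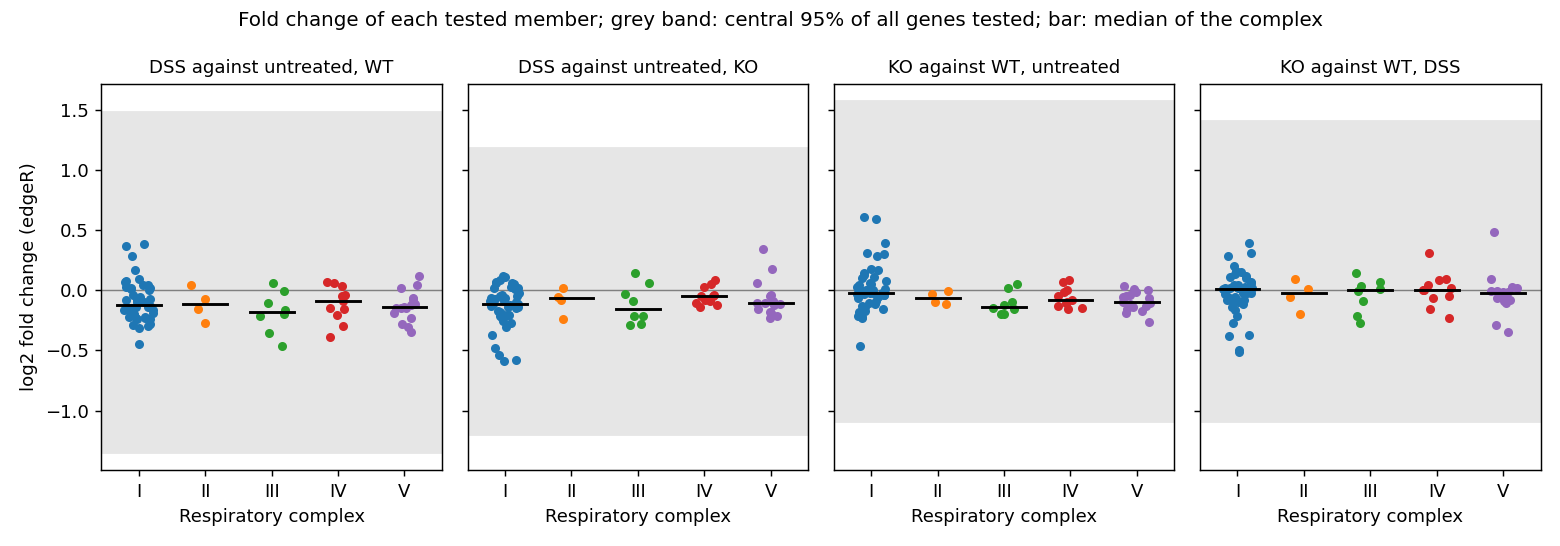
edgeR log2 fold change of each tested member (points, vertical axis) by complex (horizontal axis) in 4 comparisons; the black bar is the median of the complex and the grey band holds the central 95% of all genes tested. All members lie inside the band in each panel, and the medians lie between -0.18 and 0.01.

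Between genotypes, untreated KO and WT differed in 0 of 85 members at the threshold (edgeR; DESeq2 called Ndufv3), against 3.48% of all genes tested. The median log2 fold change of KO against WT was -0.04, against -0.0015 over all genes, with 58 members below 0. By complex the medians were -0.02 (I), -0.07 (II), -0.14 (III), -0.08 (IV) and -0.10 (V). The interval lay within 2-fold for 80 members. Here too single libraries set the median, which was 0.07 without replicate 1 and -0.20 without replicate 3 of untreated WT, 0.07 without replicate 1, -0.15 without replicate 2 and -0.08 without replicate 3 of untreated KO. With the leukocyte covariate it was -0.92, and 5 of the 9 leukocyte markers were higher in KO at the threshold. All WT libraries are numbered before all KO libraries in the labels, so an effect of that order cannot be told apart from one of genotype.

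Ndufv3 stood apart from the other members here. It encodes an accessory subunit on the NADH-oxidizing arm of complex I (chromosome 17 from 31520115 to 31531331, plus strand, no 50-base word shared with another gene). Its level was 57.9, 58.4 and 52.5 CPM in untreated WT and 38.4, 43.2 and 41.0 CPM in untreated KO. Under DSS it was 50.4, 54.1 and 48.3 CPM in WT and 35.4, 40.0 and 42.0 CPM in KO. All 6 KO samples lay below all 6 WT samples. The log2 fold change was -0.46 in untreated mice (SE 0.13, 95% interval -0.75 to -0.18, edgeR adjusted p 0.0768) and -0.38 under DSS (SE 0.13, 95% interval -0.67 to -0.09, edgeR adjusted p 0.172). It was the 1 member with an unadjusted p under 0.05 in each of these comparisons. Of the 12522 genes tested, 1930 had such a p in untreated mice and 1829 under DSS. In untreated mice 4 members had such a p without replicate 3 of untreated WT, and under DSS 2 without replicate 2 of WT or replicate 1 or 2 of KO under DSS, or 0 without a filter on low counts. With the leukocyte covariate 25 members had one in untreated mice and 19 under DSS. In untreated mice it passed with DESeq2 (-0.47, adjusted p 0.0259) and with a per-library trend on transcript length removed, an alternative chosen after seeing the data (-0.50, edgeR adjusted p 0.0288).

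Apart from Ndufv3, groups did not overlap in untreated mice for Uqcrc1 and Ndufv1, both lower in KO, and for Ndufaf5, an assembly factor that was higher. The 4 members were 4.71% of those tested, against 19.3% of all genes. Uqcrc1 was 1104, 1112 and 1010 CPM in untreated KO, below the 3 untreated WT values given above (log2 fold change -0.10, 95% interval -0.27 to 0.07). Ndufaf5 was 6.41, 6.89 and 4.02 CPM in WT and 7.00, 10.1 and 8.91 CPM in KO, with a wide interval (0.59, 95% interval -0.12 to 1.30). This comparison and that of DSS in WT share the untreated WT samples.

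Under DSS, KO and WT again differed in 0 of 85 members by edgeR and by DESeq2, against 3.11% of all genes tested by edgeR. At an unadjusted p under 0.05 (edgeR) there was 1 member, against 1829 of the 12522 genes tested. The median log2 fold change was -0.01, against 0.0027 over all genes, and 39 members were above and 46 below 0. It was 0.08 without replicate 1 and -0.10 without replicate 3 of KO under DSS, 0.07 without replicate 2 and -0.08 without replicate 3 of WT under DSS, and -0.64 with the leukocyte covariate. Of the leukocyte markers 4 were higher in KO at the threshold. Groups did not overlap for 8 members (9.41%, against 22.3% of all genes): Atp5s and Ndufaf7 higher in KO, and Ndufc1, Ndufaf6, Atp5j2, Ndufab1, Ndufaf8 and Ndufv3 lower. Atp5s, a factor associated with ATP synthase, was 9.87, 15.6 and 15.2 CPM in WT and 23.0, 16.6 and 17.3 CPM in KO (log2 fold change 0.48, 95% interval -0.01 to 0.98). Ndufab1, the mitochondrial acyl carrier protein that is also a complex I subunit, was 63.2, 68.3 and 59.5 CPM in WT and 49.3, 54.6 and 54.0 CPM in KO (-0.27, 95% interval -0.63 to 0.08). Both are small differences beside their intervals.

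Whether the DSS change itself differed between genotypes was asked by the interaction, the change in KO minus that in WT. It passed for 0 of 85 members, against 1.7% of all genes tested (edgeR), and DESeq2 called no member. No member had an unadjusted p under 0.05 in the main fit, against 1328 of the 12522 genes tested, and 1 did with the leukocyte covariate. The median was 0.02, against -0.0066 over all genes. Leaving out 1 sample at a time it ran from -0.10 without replicate 1 to 0.17 without replicate 3 of untreated WT, and with the leukocyte covariate it was 0.29. Ndufaf5 had the lowest value, -0.69, and Atp5s the highest, 0.48 (edgeR adjusted p 0.700 and 0.699). Standard errors are larger for this term, with a median of 0.34, and the interval lay within a 2-fold difference for 61 members, so a difference of smaller size was not detectable for many of them.

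The 3 genes of the c subunit can be compared per kilobase, within the limits set by their shared words. In the order WT, WT with DSS, KO, KO with DSS, Atp5g1 averaged 101 ± 22.3 CPM per kb (SD, n = 3), 81.8 ± 14.6, 88.4 ± 15.1 and 81.4 ± 7.44. Atp5g3 was 71.4 ± 14.7, 77.6 ± 15.7, 65.3 ± 21.8 and 61.0 ± 7.50, and Atp5g2 24.7 ± 6.81, 25.4 ± 7.20, 24.9 ± 6.76 and 25.9 ± 9.90 CPM per kb. Atp5g1 had the highest mean and Atp5g2 the lowest in each of the 4 groups. Log2 fold changes under DSS in WT were -0.30 (95% interval -0.72 to 0.11) for Atp5g1, 0.05 (-0.62 to 0.72) for Atp5g2 and 0.12 (-0.39 to 0.63) for Atp5g3. Cox7a2l, a relative of Cox7a2 known for its part in joining complexes III and IV, had 0.07 in WT and 0.08 in KO, and Cox7a2 itself 0.04 and -0.10.

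Genes around the chain were read from lists beside the members. Of 38 tested assembly and insertion factors other than Ndufaf genes, 16 citric acid cycle genes and 20 regulators of mitochondrial biogenesis, none passed in any of the 5 contrasts by edgeR. At an unadjusted p under 0.05 these 3 lists had 2, 5 and 3 genes in DSS in WT, 1, 1 and 2 in DSS in KO, 1, 0 and 1 in untreated KO against WT, 2, 1 and 4 under DSS, and 1, 1 and 0 for the interaction. Of the 12522 genes tested, 2204, 1987, 1930, 1829 and 1328 had such a p in these 5 contrasts, in the same order. For the citric acid cycle 13 of 16 genes were below 0 under DSS in each genotype, with medians of -0.12 in WT and -0.03 in KO. Ppargc1a, a coactivator known for driving mitochondrial biogenesis, went from 77.8 ± 8.63 CPM (SD, n = 3) without DSS to 104 ± 9.50 with it in WT (log2 fold change 0.42, edgeR adjusted p 0.0734). The KO values were 82.9 ± 9.35 and 92.8 ± 5.67 CPM (0.16, edgeR adjusted p 0.613).

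The electron carrier list joined genes that deliver electrons to the chain or carry them within it with Coq genes of ubiquinone synthesis or function. These 17 genes did hold calls. Under DSS in WT 3 of them passed the threshold, all of them lower, where 6.3% of all genes tested passed. In DSS in KO 0 passed (edgeR), in the genotype comparisons 2 without DSS and 1 with it, and for the interaction 1. Of all genes 3.92%, 3.48%, 3.11% and 1.7% passed in these contrasts, in that order. At an unadjusted p under 0.05 (edgeR) 2 of the list were found in DSS in KO, against 1987 of the 12522 genes tested. Etfa, a subunit of the flavoprotein that brings electrons from fatty acid oxidation, fell from 407 ± 47.1 CPM (SD, n = 3) to 301 ± 13.1 (log2 fold change -0.44, edgeR adjusted p 0.0181). Etfdh, the dehydrogenase that passes those electrons to ubiquinone, fell from 220.5 ± 15.4 to 173 ± 4.31 CPM (-0.35, edgeR adjusted p 0.0298). In KO the values were -0.15 and -0.13, and neither passed. The interaction was 0.29 for Etfa (edgeR adjusted p 0.513) and 0.23 for Etfdh (edgeR adjusted p 0.592), so a difference between genotypes was not shown. Both calls depend on single samples. Etfa did not pass without replicate 1 of untreated WT or replicate 1 or 3 of WT under DSS. With the leukocyte covariate it also missed, at a larger log2 fold change (-0.65, edgeR adjusted p 0.251). Etfdh passed in 6 of the 12 fits that left out a sample and missed without replicates 1 or 2 of untreated WT, any of WT under DSS, or replicate 3 of untreated KO. It also missed without a filter on low counts, with the leukocyte covariate (-0.48, edgeR adjusted p 0.352) and with the replicate block (edgeR adjusted p 0.0525).

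Gpd2, the mitochondrial glycerol-3-phosphate dehydrogenase that feeds ubiquinone directly, had the smallest adjusted p of the list. It was 183, 170 and 165 CPM in untreated WT and 115, 96.0 and 93.1 CPM in WT under DSS (log2 fold change -0.77, SE 0.11, edgeR adjusted p 0.000374). KO samples had 92.3, 95.1 and 89.2 CPM without DSS and 94.0, 94.2 and 96.2 CPM with it (0.04, SE 0.11, edgeR adjusted p 0.911). Untreated WT thus stood above the other 3 groups, which overlapped, and the log2 fold change of untreated KO against untreated WT was -0.90 (edgeR adjusted p 0.000203). Coq8a, a kinase-like protein needed for ubiquinone synthesis, was higher in KO. Without DSS it was 44.2, 52.8 and 56.1 CPM in WT and 77.7, 80.4 and 68.1 CPM in KO (0.56, edgeR adjusted p 0.0429). With DSS its level was 56.3, 60.4 and 47.1 CPM in WT and 101, 99.0 and 85.9 CPM in KO (0.80, edgeR adjusted p 0.00613), with no overlap in either comparison. The difference without DSS passed in only 2 of the 12 fits that left out a sample, those without replicate 3 of either WT group, and missed with the replicate block (edgeR adjusted p 0.0627). With the leukocyte covariate neither comparison of Coq8a passed (edgeR adjusted p 0.337 and 0.135), nor did Gpd2 for DSS in WT (0.142) or between untreated groups (0.206). The log2 fold changes in that fit were larger, 0.98 and 1.07 for Coq8a and -0.90 and -1.06 for Gpd2. Over all genes it called 106 for DSS in WT, 11 between untreated groups and 28 under DSS. The main fit called 789, 436 and 390. The other fits for Gpd2 and for Coq8a under DSS passed. Cyc1 (cytochrome c1 of complex III) and Cycs (the mobile cytochrome c between complexes III and IV) passed in no contrast, and Cycs had -0.48 under DSS in WT (edgeR adjusted p 0.123).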

How the data were processed

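Intestinal epithelial RNA was amplified from 2 ng by a SMART-seq2 protocol with Nextera XT, without molecular identifiers, per the labels' protocols, with RNA integrity numbers of 7.2 to 9.2. The deposited values are whole-number counts per gene. The submitters' processing notes name STAR 2.5.2b, featureCounts 1.5.0 and GRCm38/mm10; the annotation release, strand and multi-mapping settings are not given in the sources used here. Symbols and coordinates came from GENCODE M21 (GRCm38) by unversioned Ensembl ID, matching 46005 of 46517 IDs. Promoter windows are from RefSeq.

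The counts were tested with edgeR 4.0.16 in R 4.3.3: filterByExpr (12522 genes, 99.8% of counts), TMM scaling, 1 coefficient per group over all 12 samples, and two-sided quasi-likelihood tests of 5 contrasts with Benjamini-Hochberg adjustment over all genes tested. The common biological coefficient of variation was 0.227. DESeq2 1.42.0 was an alternative. Log2 CPM used a prior count of 2. Fits were tested on simulated data. The design text names 3 biological replicates per group, so each sample was counted on its own. Replicate pairs differed by 6.51 to 27.0 chi-square units per degree of freedom, which alone does not show that they are independent. The p-values measure the spread between these samples. Floors of 3 counts and intervals per library cover counting error only.

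A gene's main transcript was coding, in the basic set, with a UTR beyond the stop codon, of the best APPRIS rank and support level, and the shortest of those left. Words of 50 bases were compared between transcripts of all genes.

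Named genes follow a rule: core subunits of each complex, members past the threshold in any contrast, paralogue groups, undetected members, and up to 4 genes per contrast from the other lists. The single values of 1 member are not reported here, although it is part of all counts, sums and medians. Members singled out by unadjusted p or by groups that do not overlap were chosen after their values were seen. The members, lists and tests were chosen with earlier results of these data known. Alternatives were DESeq2 and its size factors, other count filters, scaling without the members, a leukocyte covariate, leaving out each sample, a replicate block and, added later, a transcript length trend.

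Titles number the samples 1 to 3 in each group, and deviations of same-numbered samples from their group means were correlated over genes. For untreated and DSS samples r was 0.204, 0.106 and 0.127 in KO and 0.014, 0.12 and 0.128 in WT. Between genotypes all values were below 0. Samples with different numbers were not correlated, so these values cannot show whether the numbers pair the samples. The main fits used no pairing, and the replicate block was an alternative.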

Additional observations from a re-analysis of the deposited data

Results flagged for a closer look

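Gpd2, named in the list of electron carriers, had a DSS change that differed between genotypes: the interaction was 0.81 on the log2 scale (SE 0.15, edgeR adjusted p 0.0107), from -0.77 in WT and 0.04 in KO. It was the only gene among the members and the electron carrier, assembly, citric acid cycle and biogenesis lists to pass this test, and it passed in all 20 alternatives (0.75 to 0.91, edgeR and DESeq2 adjusted p up to 0.0445). The cause was not tested. Untreated WT samples enter both this term and the untreated genotype comparison.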

How the results depend on the processing

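For members past the threshold, DSS in WT gave 1 without a filter on low counts (Uqcrfs1) and 0 to 2 with 1 sample left out, the 2, Uqcrfs1 among them, without replicate 3 of untreated WT. Untreated KO against WT gave 1, Ndufv3, with DESeq2 and with the transcript length trend removed. All other settings gave 0 in each contrast. With the replicate block the count was 0 in all 5 contrasts. Of the 7 calls in the electron carrier list the block lost 2. These were Etfdh for DSS in WT (-0.35, edgeR adjusted p 0.0525) and Coq8a between untreated groups (0.56, edgeR adjusted p 0.0627). Whether the numbers pair the samples is not known. The medians moved with the leukocyte covariate, to -0.91 for DSS in WT, -0.60 for DSS in KO, -0.92 for untreated KO against WT, -0.64 under DSS and 0.29 for the interaction. That covariate was 1.30, 1.02 and 0.62 in untreated WT, where the members' median deviations were 0.31, 0.19 and -0.26, and 2.98 to 3.68 in KO under DSS, so it moves with both library and group; the cause was not tested. With 1 sample left out, medians ranged from -0.28 to -0.02 (DSS in WT), -0.25 to 0.02 (DSS in KO), -0.20 to 0.07 (untreated), -0.10 to 0.08 (under DSS) and -0.10 to 0.17 (interaction). Precision limits the comparisons: in the 4 between pairs of groups the 95% interval lay within a 1.5-fold change for only 34 to 40 of 85 members. Of 2600 alternative values for 130 results of named members, 5 passed that had not before, and 276 turned sign with no call in either fit.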
